A study of Homo sapiens with 3 samples.

Results

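The genes described here are 33 human genes of DNA replication and the G1/S transition, listed by symbol, and all 33 were found among the 62680 rows of a table of expected counts per gene. They were measured by mRNA sequencing in HepG2, a human line from a liver carcinoma that is labelled wild type. One culture group received 20 µM A740003 for 48 h, one received 20 µM A438079 for 48 h, and the control group received PBS for 48 h. The labels call both compounds antagonists specific for P2X7, an ATP-gated channel, and no source used here names their solvent. Each treatment was 1 library, so no difference below has a replicate check, and no test of the treatments was possible. Every interval given covers counting error only.

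Before S phase, the origin recognition complex with CDC6 and CDT1 loads the MCM2-7 helicase onto DNA, a step called licensing. CDC45 and the GINS complex then join the helicase, and polymerases alpha, delta and epsilon copy DNA with the sliding clamp PCNA and its loader RFC. Cyclin E kinase and the E2F transcription factors time this programme, and many of its genes are known E2F targets. In adult liver most hepatocytes rest outside the cell cycle, while a growing carcinoma line such as HepG2 replicates continuously.

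The libraries held 19735588 expected counts with A740003, 19606793 with A438079 and 19375522 with PBS. All 9 hepatocyte-lineage markers checked, such as ALB and HNF4A, were detected in every library. The stromal and endothelial markers COL1A1, COL1A2, DCN, LUM, CDH5 and VWF and the leukocyte marker PTPRC had 0 counts in all 3 libraries. Of the other blood-cell markers, LYZ stood at 951 CPM (counts scaled to library size, where 1 CPM is 19.4 to 19.9 counts) with A740003, 945 with A438079 and 1034 with PBS, CD68 stood at 31.7, 39.1 and 33.6 CPM, and CD14 reached at most 0.413 CPM. The stromal marker PDGFRB reached at most 0.516 CPM. All 33 genes averaged 5 CPM or more, POLD1 and CDT1 through their PBS level, and the median gene had 1337 counts with PBS.

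Most of the replication genes differed from their PBS level by less than 1.5-fold in both antagonist libraries. CDT1, POLD1 and E2F1 were lower by more than that in both and GINS4 with A740003. The 33 genes together made up 0.442% of the A740003 library, 0.433% of the A438079 library and 0.440% of the PBS library, with exact binomial 95% intervals of 0.439% to 0.445%, 0.430% to 0.436% and 0.437% to 0.443%. Their median log2 ratio was -0.01 with A740003 over PBS and -0.004 with A438079 over PBS, beside medians of 0.001 and -0.004 over the 12270 genes measured, meaning those that averaged 1 CPM or more. With A740003, 17 of the 33 lay below PBS and 16 above, and 49.8% of all measured genes lay below. With A438079, 18 lay below and 15 above, and 50.5% of all measured genes lay below. In bulk RNA, fewer cells in S phase and less RNA of these genes per cell cannot be told apart.

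A gene was called when its scaled count differed at least 1.5-fold and the exact conditional 95% counting interval of the ratio excluded 1. By this rule CDT1, GINS4, POLD1 and E2F1 were lower with A740003, which is 4 of 33 (12.1%) beside 10.7% of all genes measured. CDT1, POLD1 and E2F1 were lower with A438079, which is 3 of 33 (9.09%) beside 9.43%. None of the 33 was called higher in either antagonist library, where 3.13% of all genes were called higher with A740003 and 1.63% with A438079. Both shares of lower genes were thus near the share among all genes measured. Among the 9589 genes that averaged 5 CPM or more, as all 33 did, 6.95% were called lower with A740003 and 5.48% with A438079. Those shares were smaller than the share of the 33 in each library.

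**Figure D1:**
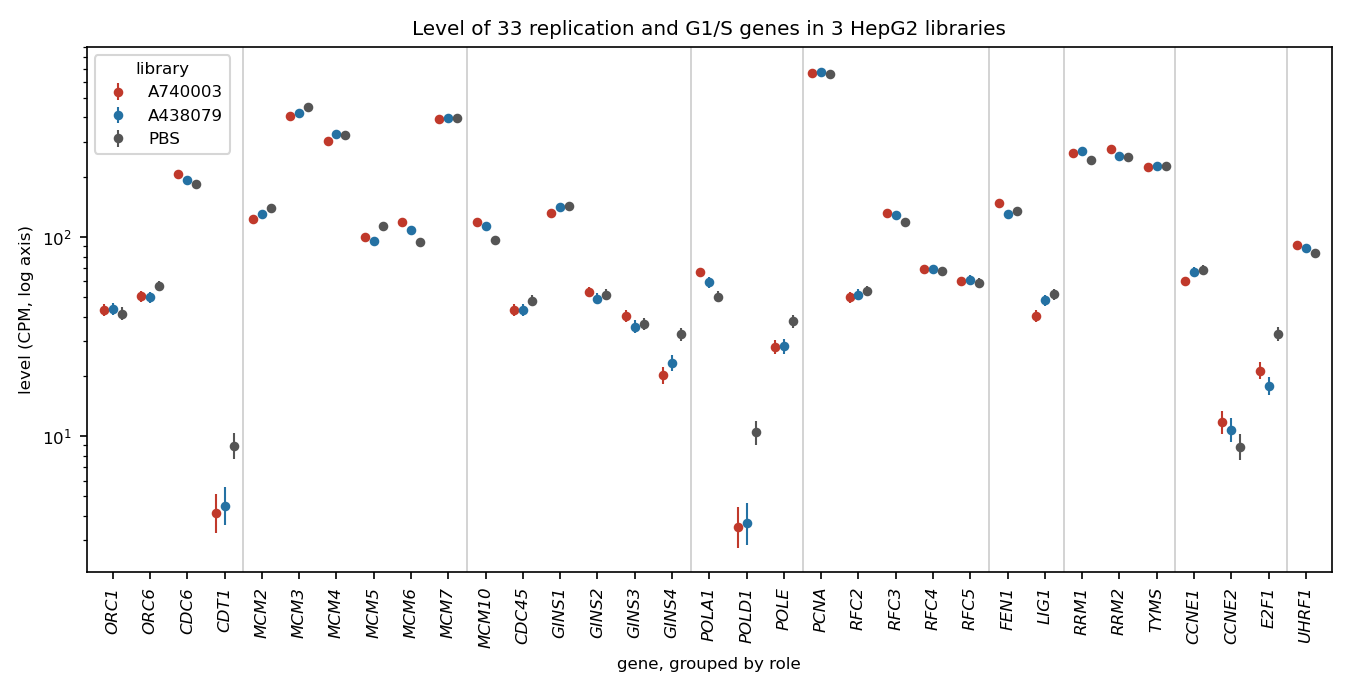
Level of each of the 33 genes in CPM (log axis, not scaled for gene length) in the A740003, A438079 and PBS libraries, with exact Poisson 95% intervals. Points of most genes lie close together, while CDT1, GINS4, POLD1 and E2F1 stand lower in both antagonist libraries than with PBS.

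POLD1, the catalytic subunit of DNA polymerase delta, was the lowest relative to PBS (ENSG00000062822, GRCh38 chromosome 19, 50384204 to 50418016 on the plus strand in GENCODE release 29). It had 70 counts with A740003 and 71 with A438079, against 203 with PBS. Its ratio over PBS was 0.336 with A740003 (95% counting interval 0.253 to 0.443) and 0.350 with A438079 (0.264 to 0.461). Both antagonist libraries were low and differed from each other by 1 count.

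CDT1, which brings the helicase to origins during licensing, lies on chromosome 16 (ENSG00000167513, 88803213 to 88809258, plus strand, same annotation). It had 82 counts with A740003 and 87 with A438079, against 174 with PBS. The ratio was 0.460 with A740003 (0.349 to 0.601) and 0.501 with A438079 (0.383 to 0.652), so its level was again low in both libraries.

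E2F1, a transcription factor that activates S-phase genes, lies on chromosome 20 (ENSG00000101412, 33675683 to 33686404, minus strand). It had 426 counts with A740003 and 347 with A438079, against 636 with PBS. The ratio was 0.653 with A740003 (0.576 to 0.740) and 0.547 with A438079 (0.478 to 0.624). E2F1 was the lower of the pair with A438079.

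POLD1, CDT1 and E2F1 have the 3 most G+C-rich transcripts of the 33. To show how sequences differ along the list, the 90 coding bases with the highest G+C content within a single exon follow for them and for RFC3, GINS1 and POLA1, which come next after CCNE2 at the G+C-poor end (GENCODE release 29 transcripts, GRCh38, 5′ to 3′ on the coding strand, G and C in capitals).
POLD1, exon 6, chr19:50402221-50402310, plus strand: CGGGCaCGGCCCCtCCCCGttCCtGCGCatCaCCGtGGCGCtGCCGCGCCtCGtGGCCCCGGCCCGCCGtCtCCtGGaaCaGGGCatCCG
CDT1, exon 1, chr16:88803861-88803950, plus strand: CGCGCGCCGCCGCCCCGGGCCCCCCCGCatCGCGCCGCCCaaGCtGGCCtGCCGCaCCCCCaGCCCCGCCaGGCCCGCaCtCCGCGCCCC
E2F1, exon 1, chr20:33686066-33686155, minus strand: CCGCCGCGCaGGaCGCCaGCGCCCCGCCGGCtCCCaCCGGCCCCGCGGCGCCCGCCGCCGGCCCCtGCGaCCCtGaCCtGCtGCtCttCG
RFC3, exon 5, chr13:33829916-33830005, plus strand: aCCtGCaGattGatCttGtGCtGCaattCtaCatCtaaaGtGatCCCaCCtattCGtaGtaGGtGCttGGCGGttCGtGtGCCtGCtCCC
GINS1, exon 4, chr20:25418105-25418194, plus strand: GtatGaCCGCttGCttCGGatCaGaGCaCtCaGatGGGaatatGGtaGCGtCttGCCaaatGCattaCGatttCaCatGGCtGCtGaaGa
POLA1, exon 9, chrX:24717382-24717471, plus strand: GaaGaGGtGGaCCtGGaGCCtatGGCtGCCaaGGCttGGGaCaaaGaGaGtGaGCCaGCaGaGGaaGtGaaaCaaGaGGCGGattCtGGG
Of the 90 bases, 70, 79 and 76 are G or C in POLD1, CDT1 and E2F1. In RFC3, GINS1 and POLA1 the numbers are 45, 43 and 51.

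GINS4, a subunit of the 4-protein GINS complex, lies on chromosome 8 (ENSG00000147536, 41529206 to 41545046, plus strand). It had 405 counts with A740003 and 452 with A438079, against 631 with PBS. The ratio was 0.626 with A740003 (0.551 to 0.710) and 0.718 with A438079 (0.635 to 0.811), short of 1.5-fold in the second. Its expected counts are fractional, and 21.2% of its exon bases are shared with an antisense gene that had 33, 5 and 9 counts with A740003, A438079 and PBS.

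G+C content of the longest annotated transcript ran from 36.9% (CCNE2) to 65.0% (POLD1) over the 33 genes, with a median of 49.1%, beside 47.9% over the 11906 measured genes with a value. The log2 ratio over PBS was lower in the genes with more G+C, both in the list and in all genes. Across the 33 genes Spearman's rho between the 2 quantities was -0.68 with A740003 and -0.72 with A438079, and across all genes it was -0.38 and -0.47. Genes of one library share its depth and composition, and the PBS library is common to both comparisons, so these values are descriptions. POLD1, CDT1 and E2F1 were the only 3 of the 33 above 60% G+C, and all 3 were called lower in both libraries. Among all 1523 measured genes above 60% G+C, 38.1% were called lower with A740003 and 34.9% with A438079. Below 45% G+C, 2.32% of 4621 genes were called lower with A740003 and 1.95% with A438079, and none of the 9 listed genes in that class was. The part of G+C content in the lower values was not tested beyond the subtraction given next.

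**Figure D2:**
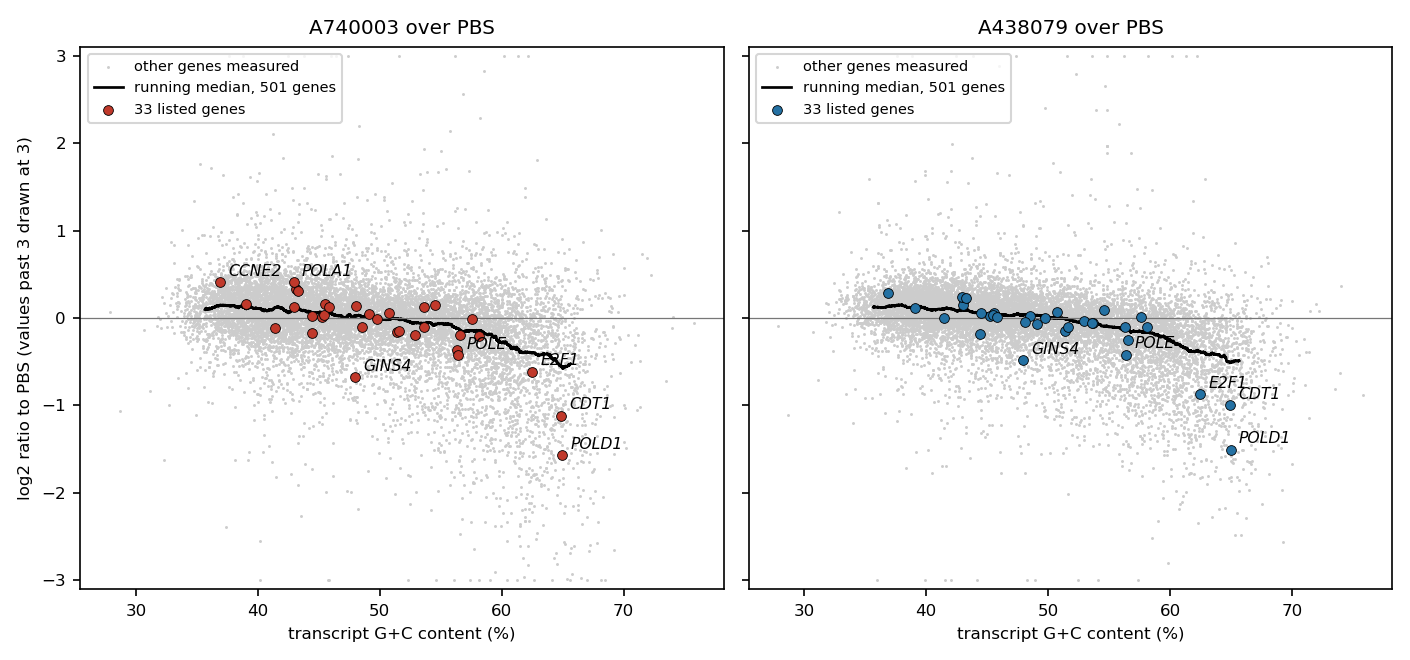
Log2 ratio over PBS (vertical axis) against transcript G+C content in percent (horizontal axis), for A740003 on the left and A438079 on the right. Grey points are all other measured genes, the line is their running median, and coloured points are the 33 genes, of which POLD1, CDT1 and E2F1 lie at the G+C-rich end at or below the line and GINS4 lies below it near 48% G+C.

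The trend with transcript G+C content and length over all genes was subtracted as a further value. POLD1 then stood at a log2 ratio of -0.62 with A740003 and -0.73 with A438079, and remained called in both. CDT1 stood at -0.34 and -0.31 and E2F1 at -0.20 and -0.46, and neither was called in either library. GINS4 stood at -0.71 with A740003, still called, and at -0.52 with A438079. Its transcript has 47.9% G+C, and at its G+C content and length the trend itself was 0.03 and 0.04.

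Among the licensing genes, CDT1 stood apart from the others before the G+C and length trend was removed. Its transcript has 64.9% G+C, beside 44.4% in ORC6, 45.5% in CDC6 and 50.7% in ORC1. With the trend removed, the log2 ratios with A740003 and A438079 were -0.34 and -0.31 for CDT1 and -0.155 and -0.188 for ORC6. They were 0.062 and -0.045 for CDC6 and 0.092 and 0.078 for ORC1. CDC6, the ATPase that works with CDT1, had 4139 counts with A740003 and 3736 with A438079, against 3601 with PBS, ratios of 1.12 (1.07 to 1.17) and 1.04 (0.993 to 1.09). ORC1, the largest subunit of the origin recognition complex, had 860, 845 and 805 counts with A740003, A438079 and PBS, and both intervals included 1. ORC6, the smallest subunit, had 1006 and 968 counts in the antagonist libraries and 1105 with PBS, ratios of 0.888 (0.814 to 0.968) and 0.878 (0.804 to 0.958). None of these 3 genes passed 1.5-fold.

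The 6 genes of the MCM2-7 helicase, whose products form 1 ring of equal parts, were not equally abundant. Scaled for length, they ran from 39.15 FPKM (fragments per kilobase of transcript, scaled to library size; the authors' values) in MCM2 to 181 in MCM7 with A740003, from 37.3 in MCM6 to 179 in MCM7 with A438079, and from 34.5 in MCM6 to 183 in MCM7 with PBS. The lowest and highest were thus 4.63, 4.80 and 5.30 times apart. None of the 6 was called in either comparison. With A740003, 5 of 6 lay below PBS, or 4 of 6 under upper quartile scaling, in which MCM7 moved above. With A438079, 3 of 6 lay below PBS, or 4 of 6 when scaled by library totals. The ratio of their summed counts to PBS was 0.950 with A740003 (0.935 to 0.966) and 0.975 with A438079 (0.960 to 0.991). Their median log2 ratio was -0.12 with A740003 and -0.05 with A438079, and 0.03 and 0.05 with the G+C and length trend removed, so the direction depended on that step. Upper quartile scaling gave a median of 0.002 with A438079.

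MCM6 had the highest ratio of the ring in both libraries. It had 2368 counts with A740003 and 2113 with A438079, against 1831 with PBS, ratios of 1.26 (1.19 to 1.34) and 1.16 (1.09 to 1.23). Its log2 ratios were 0.335 and 0.209, or 0.249 and 0.122 with the trend removed. MCM5 lay below PBS, with 1990 and 1856 counts against 2216, ratios of 0.876 (0.824 to 0.931) and 0.839 (0.788 to 0.893). MCM3 had ratios of 0.904 with A740003 and 0.932 with A438079, and MCM2 had 0.869 and 0.929. With the trend removed, MCM5 stood at log2 ratios of 0.005 and -0.08 and MCM2 at 0.06 and 0.16, which ended or turned the lower direction except for MCM5 with A438079. MCM3 stayed below PBS, at -0.12 and -0.07, while MCM7 stood at 0.15 and 0.17. For MCM4 the ratios were 0.933 and 1.02, and the trend-removed log2 ratios were -0.14 and -0.03. MCM7, the most abundant of the ring, had 7818 counts with A740003 and 7699 with A438079, against 7679 with PBS, and both intervals included 1.

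Of the genes that activate the loaded helicase, MCM10 was above PBS in both libraries. It had 2397 counts with A740003 and 2218 with A438079, against 1889 with PBS, ratios of 1.24 (1.16 to 1.32) and 1.18, with intervals above 1 in both. With the G+C and length trend removed, its log2 ratios were 0.142 and 0.099, beside 0.307 and 0.234 without that step. CDC45, part of the active helicase, had 859 and 837 counts in the antagonist libraries and 933 with PBS, ratios of 0.898 (0.817 to 0.986) and 0.899 (0.818 to 0.988). Within GINS, the 4 subunit genes did not move alike. The ratio was 0.924 with A740003 and 0.998 with A438079 for GINS1, 1.03 and 0.956 for GINS2, and 1.10 and 0.971 for GINS3, while GINS4 was the low one described above. GINS4 was also the least abundant of the 4 per length, at 7.86 FPKM with A740003, 8.36 with A438079 and 12.2 with PBS. GINS1 was the most abundant, at 49.7, 48.6 and 52.6 FPKM.

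The 3 polymerase genes went in different directions. POLA1, the catalytic subunit of polymerase alpha, which starts new strands with primase, had 1329 counts with A740003 and 1150 with A438079, against 976 with PBS. Its ratio was 1.33 (1.22 to 1.44) with A740003 and 1.18 (1.08 to 1.29) with A438079, so it lay above PBS in both libraries without reaching 1.5-fold. Its transcript has 42.9% G+C, beside 65.0% in POLD1 and 56.4% in POLE. With the G+C and length trend removed, POLA1 stood at log2 ratios of 0.225 and 0.088, beside 0.409 and 0.239 without that step.

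POLE, the catalytic subunit of the leading-strand polymerase epsilon, had 560 counts with A740003 and 548 with A438079, against 734 with PBS. The count ratio was 0.744 (0.665 to 0.832) with A740003 and 0.748 (0.668 to 0.837) with A438079. In the authors' FPKM values it stood at 4.81, 6.21 and 11.0 with A740003, A438079 and PBS, ratios of 0.437 and 0.565. The count ratio was thus 1.70 and 1.32 times the FPKM ratio, so the length implied by the FPKM values was not the same in each library. No other of the 33 genes had as wide a gap between the scales. By FPKM it passed 1.5-fold in both, and with the G+C and length trend removed its count ratio was above PBS, at log2 values of 0.26 and 0.16.

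The clamp gene and most loader genes stood close to PBS. PCNA was the most abundant of the 33 genes per length, at 660 FPKM with A740003, 650 with A438079 and 662 with PBS. It had 13235, 13059 and 12830 counts in that order of libraries, ratios of 1.01 (0.982 to 1.03) and 1.02 (0.995 to 1.04). The RFC2, RFC4 and RFC5 intervals all included 1 in both comparisons, with ratios between 0.932 and 1.04. RFC3 had 2648 and 2502 counts in the antagonist libraries and 2316 with PBS, ratios of 1.12 (1.05 to 1.18) and 1.08 (1.02 to 1.15).

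Both genes for enzymes that finish the lagging strand differed between the antagonists, in opposite directions and by less than 1.5-fold. The ratio of A740003 over A438079 was 0.833 for LIG1 (0.757 to 0.916) and 1.13 for FEN1 (1.07 to 1.19). LIG1, which seals nicks between Okazaki fragments, had 800 counts with A740003 and 935 with A438079, against 1006 with PBS. The ratio was 0.776 (0.706 to 0.852) with A740003 and 0.931 (0.851 to 1.02) with A438079. Trend-removed log2 ratios of LIG1 were -0.16 and 0.10. FEN1, the nuclease that trims their 5′ flaps, had 2955 counts with A740003 and 2541 with A438079, against 2640 with PBS, ratios of 1.09 (1.04 to 1.15) and 0.964 (0.913 to 1.02).

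The 3 genes of deoxynucleotide supply had ratios between 0.989 and 1.11. RRM1, the large subunit of ribonucleotide reductase, had 5293 counts with A740003 and 5260 with A438079, against 4748 with PBS, ratios of 1.09 (1.05 to 1.13) and 1.11 (1.07 to 1.15). RRM2, its small subunit, had 5496 and 4959 counts against 4909, ratios of 1.09 (1.05 to 1.13) and 1.01 (0.973 to 1.05). TYMS, the thymidylate synthase gene, had ratios of 0.989 and 0.998 and was the second most abundant of the 33 per length, at 205, 206 and 218 FPKM with A740003, A438079 and PBS. Its exons overlap those of ENOSF1 on the opposite strand over 58.2% of their bases, and ENOSF1 had 448, 521 and 540 counts.

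The 2 cyclin E genes lay on opposite sides of PBS with A740003, while both intervals included 1 with A438079. CCNE1 had 1194 counts with A740003 and 1303 with A438079, against 1337 with PBS, ratios of 0.871 (0.805 to 0.942) and 0.976 (0.904 to 1.05). With the G+C and length trend removed, CCNE1 stood at log2 ratios of -0.202 and -0.004. Under upper quartile scaling it stood at 0.015 with A438079. CCNE2 had 235 and 210 counts against 172, ratios of 1.33 (1.09 to 1.63) and 1.22 (0.995 to 1.51). Its log2 ratios were 0.413 and 0.29, or 0.313 and 0.176 with the G+C and length trend removed. CCNE2 has the lowest G+C content of the 33 genes, and 47.5% of its exon bases overlap INTS8 on the opposite strand, a gene with 1370, 1254 and 1164 counts with A740003, A438079 and PBS. UHRF1, which keeps DNA methylation in place behind the fork, had 1827 counts with A740003 and 1720 with A438079, against 1612 with PBS, ratios of 1.11 (1.03 to 1.18) and 1.07 (0.998 to 1.14).

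**Figure D3:**
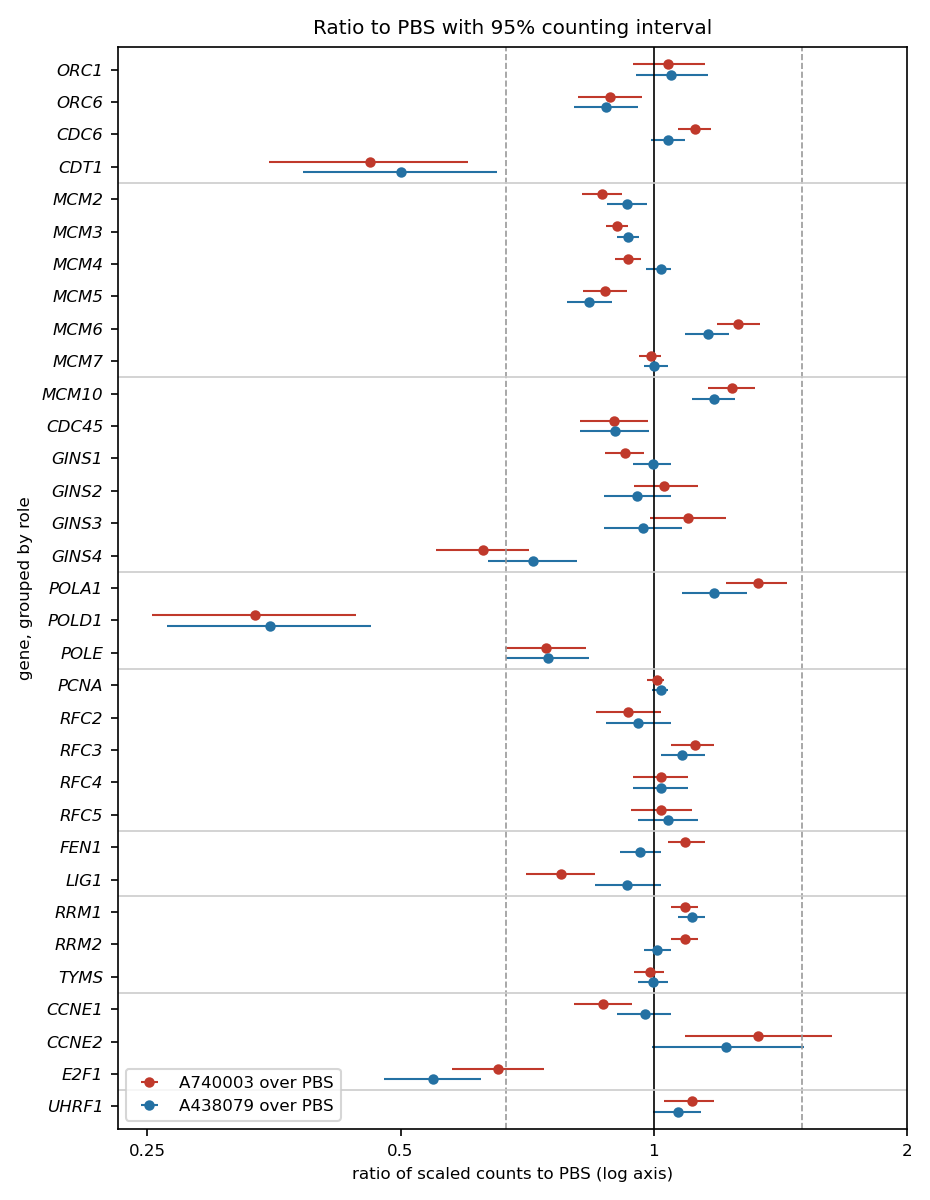
Ratio of scaled counts to PBS (log axis) for the 33 genes, grouped by role from licensing at the top to UHRF1 at the bottom, with exact 95% counting intervals; A740003 is drawn above A438079 for each gene. Dashed lines mark 1.5-fold, and POLD1, CDT1 and E2F1 lie left of them in both libraries and GINS4 with A740003.

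Smaller differences were counted by the interval alone. With A740003 the interval lay above 1 for 10 of the 33 genes and below 1 for 14, beside 3208 (26.1%) and 3279 (26.7%) of the 12270 genes measured. With A438079 it lay above 1 for 5 of the 33 and below 1 for 10, beside 22.9% and 23.2%. In both comparisons a larger share of the 33 than of all genes lay below 1. The share above 1 was also larger with A740003, and smaller with A438079. With A740003 the interval included 1 for 9 of the 33, beside 5783 of the 12270 genes. Among the 9589 genes that averaged 5 CPM or more, 2938 lay above 1 and 2584 below with A740003, and 2657 and 2157 with A438079. These shares rest on counting depth, and variation between cultures was not measured.

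The antagonists were compared directly, since dose and time matched. None of the 33 was called between A740003 and A438079, beside 2.44% of all genes called higher and 2.81% called lower with A740003. The median log2 ratio of A740003 over A438079 was -0.008, and -0.004 over all genes. The interval lay above 1 for 7 of the 33 and below 1 for 6, beside 15.6% and 17.4% of all genes. The direct ratio was 0.960 for POLD1 (0.680 to 1.35) and 0.918 for CDT1 (0.670 to 1.26), so differences inside those bounds were not detectable at this depth.

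The highest ratios of A740003 over A438079 were those of E2F1 at 1.20 (1.03 to 1.38), FEN1 at 1.13 (1.07 to 1.19), GINS3 at 1.13 (lower bound 1.02) and POLA1 at 1.12 (1.04 to 1.22). GINS3 encodes another GINS subunit and had 802 counts with A740003 and 691 with A438079, against 713 with PBS. The lowest were LIG1 at 0.833 (0.757 to 0.916), GINS4 at 0.872, CCNE1 at 0.892 (0.824 to 0.966) and CDT1 at 0.918. The whole interval of each of these 8 genes lay inside the 1.5-fold threshold. MCM4 came next at 0.919 (0.887 to 0.952), with 6058 counts with A740003 and 6417 with A438079, against 6333 with PBS.

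Promoter sequence was examined for E2F sites and the CCAAT box. The RefSeq promoter table (GRCh38.p14) holds 29 of the 33 genes, and the 250 bases before each start were searched on both strands for 4 forms of the E2F site (TTTCCCGC, TTTCGCGC, TTTGCCGC and TTTGGCGC), none of which contains another. At least 1 was present for 13 of the 29 genes (44.8%), beside 3.40% of the 27305 genes in the table. The CCAAT box, searched the same way, was present for 18 of 29 (62.1%), beside 37.0% of all genes. All genes here are those of the promoter table, measured or not, and were not matched for level or G+C content. Many genes of this programme are known E2F targets, so the E2F share is not independent of how the list was made. RefSeq starts need not be those of GENCODE. The stretches are given for the 3 genes called lower in both libraries and for POLA1, which lay above PBS, with E2F forms in capitals (5′ to 3′ toward the start).
POLD1, chr19:50384073-50384322, plus strand: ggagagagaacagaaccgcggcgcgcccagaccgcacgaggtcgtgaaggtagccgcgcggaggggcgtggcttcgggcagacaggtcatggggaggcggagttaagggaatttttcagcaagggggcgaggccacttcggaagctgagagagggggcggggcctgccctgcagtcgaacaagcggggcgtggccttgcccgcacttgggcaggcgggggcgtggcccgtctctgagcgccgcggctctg
CDT1, chr16:88803539-88803788, plus strand: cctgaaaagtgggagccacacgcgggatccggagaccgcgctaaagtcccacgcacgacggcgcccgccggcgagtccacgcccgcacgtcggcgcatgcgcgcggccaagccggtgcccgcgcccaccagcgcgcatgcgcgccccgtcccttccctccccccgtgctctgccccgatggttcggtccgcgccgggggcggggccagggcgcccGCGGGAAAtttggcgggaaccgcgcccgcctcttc
E2F1, chr20:33686386-33686635, minus strand: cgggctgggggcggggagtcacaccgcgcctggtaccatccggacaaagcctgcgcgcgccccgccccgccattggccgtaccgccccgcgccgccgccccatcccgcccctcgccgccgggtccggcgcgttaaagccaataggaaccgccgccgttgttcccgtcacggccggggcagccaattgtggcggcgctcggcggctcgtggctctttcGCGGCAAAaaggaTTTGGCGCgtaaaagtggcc
POLA1, chrX:24693668-24693917, plus strand: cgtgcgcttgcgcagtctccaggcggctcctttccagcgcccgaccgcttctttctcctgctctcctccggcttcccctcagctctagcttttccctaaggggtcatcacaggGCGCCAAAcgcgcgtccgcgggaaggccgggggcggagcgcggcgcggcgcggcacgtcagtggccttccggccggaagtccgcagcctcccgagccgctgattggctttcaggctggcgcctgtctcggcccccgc
A match begins 35 bases before the start in CDT1, 33 and 20 bases before it in E2F1 and 137 bases before it in POLA1. The POLD1 stretch holds none of the 4 forms. Matches were thus found both in genes called lower and in genes that were not, and a match is a description of letters rather than a bound site.

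Other genes of the same processes, from lists that exclude the 33, stood near PBS as well. Of 39 further fork and origin genes, none was called higher and 1 was called lower with A740003, and none was called either way with A438079, with medians of 0.005 and 0.02. The share called lower with A740003 was 2.56%, beside 10.7% of all genes measured. With A438079, 9.43% of all genes were called lower. Of all genes, 3.13% were called higher with A740003 and 1.63% with A438079. The list thus held a smaller share of called genes than all genes did. RECQL4, a helicase of replication initiation with 65.5% G+C in its transcript, was the one called, with ratios of 0.624 with A740003 (0.490 to 0.791) and 0.788 with A438079 (0.629 to 0.986). With the G+C and length trend removed, RECQL4 stood above PBS, at log2 ratios of 0.38 and 0.47. TICRR had ratios of 0.704 (0.613 to 0.807) and 0.835 (0.732 to 0.953), and trend-removed log2 ratios of -0.44 and -0.20. CHTF8, with fractional counts, had ratios of 1.45 (1.28 to 1.63) and 1.14 (1.01 to 1.30), and trend-removed log2 ratios of 0.63 and 0.27. CDC7, the kinase that activates loaded helicases, had 487 and 467 counts in the antagonist libraries and 341 with PBS, ratios of 1.39 (1.21 to 1.60) and 1.37 (1.19 to 1.58). Its trend-removed log2 ratios were 0.35 and 0.34.

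Of 24 further nucleotide supply genes, 2 were called lower in each antagonist library and none higher, with medians of -0.01 and 0.01. This is 8.33% of the list, beside 10.7% and 9.43% of all genes measured called lower with A740003 and A438079. Among genes that averaged 5 CPM or more, as all 24 did, the shares were 6.95% and 5.48%. CAD, which carries out the first steps of pyrimidine synthesis, had 79 counts with A740003 and 105 with A438079, against 287 with PBS, ratios of 0.268 (0.207 to 0.345) and 0.367 (0.290 to 0.460). With the G+C and length trend removed it stood at log2 ratios of -1.03 and -0.79. IMPDH1, an enzyme of guanine nucleotide synthesis, had ratios of 0.430 (0.322 to 0.568) and 0.662 (0.516 to 0.846), and trend-removed log2 ratios of -0.68 and -0.09.

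Of 16 chromatin assembly and maintenance methylation genes, 2 were called lower with A740003 (12.5%, beside 10.7% of all genes) and 1 with A438079 (6.25%, beside 9.43%), with medians of -0.08 and -0.01. The shares among genes that averaged 5 CPM or more, as all 16 did, were 6.95% and 5.48%. CABIN1, a subunit of a histone H3.3 chaperone, had 189 counts with A740003 and 253 with A438079, against 525 with PBS, ratios of 0.351 (0.296 to 0.415) and 0.483 (0.414 to 0.562). With the trend removed, CABIN1 stood at log2 ratios of -0.41 and -0.24, short of 1.5-fold in both. USP7, a deubiquitinase that acts on UHRF1 among other proteins, had 2934 and 3650 counts against 4756, ratios of 0.602 (0.574 to 0.630) and 0.769 (0.736 to 0.803), and trend-removed log2 ratios of -0.85 and -0.46.

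Checkpoint and mitotic genes had medians slightly above PBS. Of 19 replication checkpoint genes, ATR, the kinase that senses stalled forks, was the 1 called higher with A740003 and none was called with A438079, with medians of 0.17 and 0.08. None of them was called lower in either library. Of all genes measured, 3.13% were called higher and 10.7% lower with A740003, and 1.63% and 9.43% with A438079. ATR has fractional counts, 1243 with A740003 and 1081 with A438079, against 757 with PBS, ratios of 1.60 (1.46 to 1.76) and 1.43 (1.30 to 1.57). With the trend removed its log2 ratios were 0.48 and 0.33, short of 1.5-fold. The medians of the list were 0.03 and 0.001 with the G+C and length trend removed. WEE1, which restrains entry into mitosis, had ratios of 0.672 (0.605 to 0.746) and 0.755 (0.682 to 0.837). Its trend-removed log2 ratios were -0.68 and -0.51, past 1.5-fold with A740003.

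Of 30 mitosis and G2/M genes, 3 were called lower with A740003 (10.0%, beside 10.7% of all genes) and 1 with A438079 (3.33%, beside 9.43%). All 30 averaged 5 CPM or more, and among all genes at that level the shares were 6.95% and 5.48%. The medians of the 30 genes were 0.085 and 0.080, or 0.05 and 0.03 with the trend removed. FOXM1, a transcription factor for mitotic genes, had 387 counts with A740003 and 471 with A438079, against 704 with PBS, ratios of 0.536 (0.472 to 0.608) and 0.670 (0.595 to 0.754). PLK1, a mitotic kinase, had ratios of 0.611 (0.571 to 0.654) and 0.701 (0.657 to 0.748). CDC25B, a phosphatase that activates cyclin-dependent kinases, had ratios of 0.591 (0.520 to 0.671) and 0.647 (0.571 to 0.733), but trend-removed log2 ratios of -0.38 and -0.31, short of 1.5-fold. FOXM1 and PLK1 have fractional counts. With the trend removed, FOXM1 stood at log2 ratios of -0.75 and -0.44 and PLK1 at -0.69 and -0.45. Both were past 1.5-fold with A740003 only.

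Of 25 further G1/S cyclins, kinases, E2F factors and pocket proteins, 1 was called lower with A740003, none was called lower with A438079 and none was called higher in either, with medians of -0.001 and 0.03. Of 8 listed genes for inhibitors of cyclin-dependent kinases, 3 were measured, and none was called. CDKN1A, a target of p53 that halts the cycle in G1, had 1063 counts with A740003 and 963 with A438079, against 893 with PBS, ratios of 1.16 (1.06 to 1.27) and 1.08 (0.985 to 1.18).

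**Figure D4:**
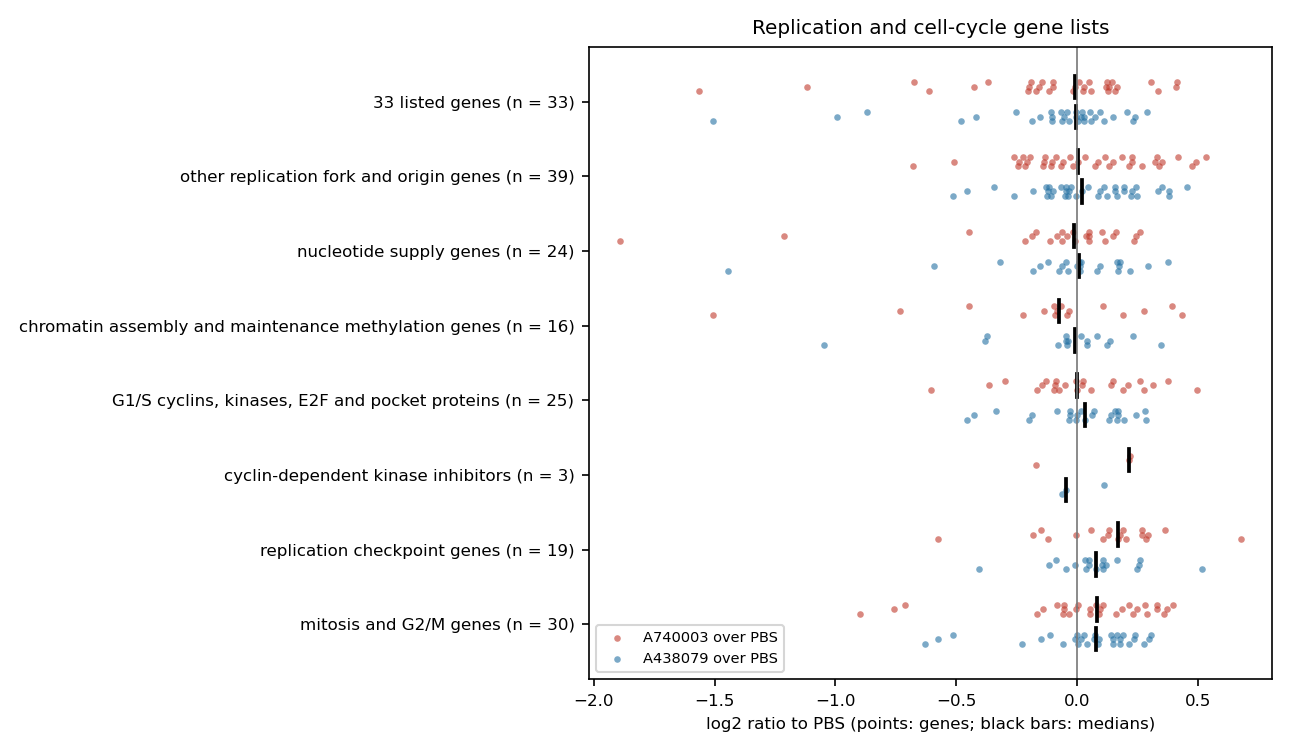
Log2 ratio over PBS (horizontal axis) of every measured gene in the list of 33 and in 7 further lists, with A740003 above A438079 in each row and black bars at the medians. Medians lie between -0.08 and 0.22, and the points farthest to the left are POLD1 and CDT1 in the top row and single genes such as CAD and CABIN1 in the others.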

How the data were processed

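Total RNA of HepG2 cells was taken through an RNeasy extraction and a SMARTer mRNA library kit, per the labels' protocols. The authors deposited expected counts per gene, which are estimates that need not be whole, and FPKM values per gene, scaled by them for gene length and library size. The submitters' processing notes name only the build GRCm38, a mouse assembly, while the rows are human genes; the sources used here give no aligner, counter, annotation or use of strand, so overlapping and antisense genes are uncertain. Columns were matched to samples by the letter in each label. No Ensembl identifier was present in 116 rows, which took 0.0775% to 0.0853% of counts.

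After rounding, expected counts were scaled by TMM factors between 0.989 and 1.01, from edgeR 4.0.16 under R 4.3.3. Comparisons cover the 12270 genes that averaged 1 CPM or more, and some shares are also given over the genes that averaged 5 CPM or more. The design named no test, since each treatment is 1 library. Ratios carry exact conditional binomial (Clopper-Pearson) intervals, and log2 ratios use a pseudocount of 0.5 counts. Reads are not independent molecules, so intervals cover counting error only. Transcript G+C content and length are those of the longest GENCODE release 29 basic transcript. The trend subtracted is the median log2 ratio of the 201 genes nearest in rank of both. Of the 33 genes, 23 have whole expected counts in every library (tolerance 0.005) and 10 have fractional ones. The steps were tested on simulated data.

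The 33 genes and the further lists were chosen with earlier results of these data known. All 33 may be named. Values in every library are given for those called, for the most and least abundant and for the 4 highest and 4 lowest ratios between antagonists. Of each further list, up to 4 genes that averaged 5 CPM or more and had the largest ratios may be named. As alternatives, scaling used size factors of DESeq2 1.42.0, upper quartiles or library totals, and other filters, other folds, FPKM with pseudocounts of 0.1 and 1, whole counts only and removal of the trend were tried.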

Additional observations from a re-analysis of the deposited data

How the results depend on the processing

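The median log2 ratio of the 33 genes stayed between -0.10 and 0.05 with A740003 over PBS, between -0.08 and 0.05 with A438079 over PBS and between -0.008 and 0.02 with A740003 over A438079, under all scalings, filters, FPKM pseudocounts, the G+C and length step and whole counts only. Of the 4 genes called lower with A740003, 2 (GINS4 and POLD1) were called with the G+C and length trend removed and 2 (CDT1 and POLD1) at 2-fold. Of the 3 called lower with A438079, 1 (POLD1) was called in each of those settings. At the fold threshold below 1.5 that was tried, 3 genes were called higher with A740003 (MCM6, POLA1 and CCNE2), 6 were called lower with A740003 (POLE and LIG1 besides the 4) and 5 lower with A438079 (GINS4 and POLE besides the 3). The share of all genes called at the other folds or with the trend removed is not given here. Whether these counts are above or below the background therefore cannot be said. E2F1 narrowly missed 1.5-fold with A740003 under upper quartile scaling (log2 -0.56) and with FPKM (-0.58 and -0.55), GINS4 did so with FPKM at a pseudocount of 1 (-0.57), and POLE was called lower in both comparisons with FPKM. None of the 4 genes called from counts changed direction over PBS in any setting, while POLE turned to 0.26 and 0.16 with the trend removed. That step changed the sign of the ratio over PBS for 5 of the 33 genes with A740003 (MCM2, MCM5, MCM7, POLE and RFC5) and 7 with A438079 (CDC6, MCM2, MCM4, POLE, FEN1, LIG1 and RRM2). Under other scalings the sign changed for 2 with A740003 and 6 with A438079, all with log2 values within 0.067 of 0. Upper quartile scaling moved the median of all genes to 0.06 with A740003 and 0.05 with A438079. Leaving out a replicate was not possible with 1 library per treatment. No paired analysis was possible because each treatment has 1 library. CDT1 and POLD1, with 70 to 203 counts, had the widest relative intervals, and smaller differences in them were not detectable at this depth.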

Other observations

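The E2F family beyond E2F1 was read from the list of G1/S regulators, with values on both sides of PBS. E2F7 and E2F8, which repress E2F targets, had 790 and 496 counts with A740003, 702 and 416 with A438079 and 593 and 343 with PBS. Their ratios over PBS were 1.30 (1.17 to 1.45) and 1.41 (1.23 to 1.62) with A740003, and 1.19 (1.06 to 1.33) and 1.22 (1.05 to 1.41) with A438079. E2F3, an activator, had 936 counts with A740003 and 838 with A438079, against 733 with PBS. E2F2, an activator like E2F1, had 74 and 87 counts against 110, ratios of 0.656 (0.482 to 0.889) and 0.792 (0.591 to 1.06), and was named after its values were seen because it was the only one of the 25 measured genes of that list called in either library. E2F5 had ratios of 0.776 (0.684 to 0.880) and 0.871 (0.771 to 0.985). Transcript G+C content was 62.5% in E2F1 and 57.5% in E2F2, and between 43.1% and 46.1% in E2F3, E2F5, E2F6, E2F7 and E2F8. E2F4, at 58.1%, had ratios of 1.02 and 0.997. With the G+C and length trend removed, E2F2 stood at log2 ratios of -0.16 with A740003 and 0.05 with A438079, so its call was lost and its direction turned with A438079. E2F8 then stood at 0.46 and 0.24 and E2F5 at -0.36 and -0.21, beside 0.50 and 0.28 for E2F8 and -0.37 and -0.20 for E2F5 without that step. E2F7 and E2F3 moved more toward PBS. E2F7 stood at 0.23 and 0.10 with the trend removed, beside 0.377 and 0.246. E2F3 stood at 0.19 and 0.09, beside 0.316 and 0.196.

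Exons of 14 of the 33 genes overlap another annotated gene, and 7 share over 10% of their exon bases with one. The neighbour of RFC4, EIF4A2, shares 1.31% of the RFC4 exon bases and had 12210 counts with A740003, 11975 with A438079 and 9933 with PBS, more than RFC4 itself.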
